A study of Mus musculus with 63 samples.

Results

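The 9 transcription factors of the myeloid lineage studied here, Spi1, Irf8, Irf5, Sall1, Mef2a, Mef2c, Runx1, Cebpa and Ikzf1, were followed through the sorted cells of the mouse cortex after a skin burn. They were taken by symbol from the Ensembl identifiers of the count tables, and all 9 of the 9 were found among 56980 genes listed. Counts were scaled to the library total as CPM. The mice were female C57BL/6J animals, 12 weeks old, with either a non-severe thermal burn over 7 to 8% of the body surface or a sham injury, and tissue was taken 5 weeks later. Burn and sham mice alike had received 2 viral vectors in the motor cortex, AAV carrying eGFP under the CaMKII promoter and AAV carrying mRuby2 under the mDlx enhancer, together with anaesthesia, surgery and analgesia. The methods name a further dose of the opioid buprenorphine after surgery for some burn mice only, and its part in the burn comparisons was not tested. Sorting gave CaMKII positive cells (4 burn and 6 sham libraries) and CaMKII-mDlx double-positive cells (9 and 7) from the motor cortex, and ACSA2-positive astrocytes (9 and 8) and CD11b-positive microglia (8 and 7) from cortex caudal to it. Both motor cortex gates rested on the fluorescence of the vectors, and each glial gate rested on 1 surface antigen. The libraries of mouse 3 in all 4 populations and the double-positive library of mouse 8 were left out, the former for a skin ulcer and the latter for its size, which kept 58 of 63 libraries from 17 mice. Sequencing took place in 3 batches, and batch 3 alone held several burn and sham libraries of every population.

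Macrophage identity is built by factors that act in layers. Spi1, the ETS factor PU.1, opens and holds myeloid enhancers together with partners such as Irf8, Runx1 and Cebpa, and the same factors drive the genes for growth factor receptors and immune receptors. In microglia, the macrophages of the brain, Sall1 and the Mef2 factors add the part of the programme that sets these cells apart from macrophages elsewhere, while Mef2a and Mef2c are also well known in muscle and in neurons.

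Total counts per library ran from 13346143 to 134703744 (median 24339895.5), so that 3 counts, taken as the detection floor, stood at 0.0223 CPM or more. Marker lists were compared with the labels first. CD11b-positive and ACSA2-positive libraries held the markers of their label: the median of 14 microglial markers was 1461 ± 221 CPM (SD, n = 15) in the former, and that of 10 astrocyte markers was 2525 ± 374 CPM (SD, n = 17) in the latter. Double-positive libraries went against their label: the microglial list stood at 1282 ± 258 CPM (SD, n = 16) there, whereas pan-neuronal genes stood at 2.14 ± 0.875 CPM and genes of inhibitory neurons at 0.0262 ± 0.0431 CPM. CaMKII positive libraries had 1242 ± 242 CPM for the astrocyte list (SD, n = 10), 467 ± 189 CPM for the endothelial list, 52.1 ± 24.5 CPM for the microglial list and 12.3 ± 4.77 CPM for the list of all neurons. Both are named below by their sort gate and not as neurons. In such bulk libraries, fewer cells of a type and less RNA per cell cannot be told apart.

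The promoters of 4 factors are shown because they stand for the 2 patterns found below: Irf8 and Runx1 were close to 0 in ACSA2-positive libraries, whereas Sall1 and Mef2a were kept there. Each is the stretch of 250 bases before a RefSeq start site of assembly GRCm38.p6, read along the gene. Capitals mark GAGGAA or its reverse complement, a pattern that PU.1 binds. The shorter GGAA core shared by ETS factors is not marked. Both starts of Runx1 are shown, the downstream one first, since only that one holds GAGGAA. Of the 2 starts of Irf8 and 3 of Sall1 the one farthest upstream is shown, and none of these holds GAGGAA on either strand.
Irf8 (chr8:120736108-120736357, + strand): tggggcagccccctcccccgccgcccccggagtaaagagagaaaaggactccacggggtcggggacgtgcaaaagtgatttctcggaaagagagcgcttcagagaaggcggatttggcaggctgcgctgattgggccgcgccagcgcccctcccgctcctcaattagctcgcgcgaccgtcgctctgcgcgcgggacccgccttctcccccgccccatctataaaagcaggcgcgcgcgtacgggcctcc
Runx1 (chr16:92697330-92697579, − strand): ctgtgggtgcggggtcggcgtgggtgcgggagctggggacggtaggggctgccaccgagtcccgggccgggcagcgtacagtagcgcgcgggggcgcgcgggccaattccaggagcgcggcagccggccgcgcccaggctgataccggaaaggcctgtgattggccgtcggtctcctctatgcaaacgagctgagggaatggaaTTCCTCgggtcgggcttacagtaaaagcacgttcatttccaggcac
Runx1, other start (chr16:92826075-92826324, − strand): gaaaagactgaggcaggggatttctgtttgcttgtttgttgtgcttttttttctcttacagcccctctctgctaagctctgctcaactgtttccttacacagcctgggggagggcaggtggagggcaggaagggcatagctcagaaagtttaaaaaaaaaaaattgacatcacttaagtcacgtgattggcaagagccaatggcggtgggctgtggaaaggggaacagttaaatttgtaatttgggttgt
Sall1 (chr8:89044163-89044412, − strand): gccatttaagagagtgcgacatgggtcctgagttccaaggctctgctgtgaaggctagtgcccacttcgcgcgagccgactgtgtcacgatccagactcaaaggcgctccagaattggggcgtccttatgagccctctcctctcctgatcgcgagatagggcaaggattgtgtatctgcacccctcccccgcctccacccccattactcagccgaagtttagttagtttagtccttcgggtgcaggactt
Mef2a (chr7:67372859-67373108, − strand): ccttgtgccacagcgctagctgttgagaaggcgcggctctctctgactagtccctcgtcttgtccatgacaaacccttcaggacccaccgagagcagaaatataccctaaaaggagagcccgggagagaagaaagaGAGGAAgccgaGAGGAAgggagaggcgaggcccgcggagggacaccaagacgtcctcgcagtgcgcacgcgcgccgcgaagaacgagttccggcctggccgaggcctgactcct
Across 15 such windows, which covered 8 of the 9 factors, GAGGAA was present in 4 on either strand, at Mef2a, at Runx1 and at 2 starts of Mef2c, against 23.25% of 32851 promoters. At Mef2a it began 114 and 103 bases before the start, and at the downstream Runx1 start it began 46 bases before it. The 9-letter composite GGAANNGAA of ETS and IRF factors was present in 1 window, that of the downstream Runx1 start (6.99% of promoters). Its letters can overlap those of GAGGAA. A loose form of the MEF2 pattern, CTANNNNTA with any base at N, was present in 3 windows (19.0% of promoters), 1 each of Mef2c, Cebpa and Ikzf1. All 3 matches held G or C among the open bases, where the full MEF2 element has only A or T. The RUNX pattern TGTGGT and the C/EBP pattern TTGCNNAA were present in 0 windows, against 14.05% and 9.56% of promoters. These patterns were chosen after the levels were known, and a match describes letters only. The windows held 33.6 to 82.0% G and C, against a median of 52.4% over all promoters.

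The pioneer of the lineage, Spi1, separated microglia from astrocytes most widely. Its level in CD11b-positive libraries ran from 180 to 239 CPM with a median of 211, and in double-positive libraries from 167 to 204 CPM with a median of 194. It fell to between 5.19 and 23.2 CPM (median 11.9) in CaMKII positive libraries. In ACSA2-positive libraries it was at 0 counts in 9 of 17, with a highest value of 2.01 CPM. The CD11b-positive and double-positive ranges overlapped, and no value of either reached down to the other 2 populations. Irf8, the interferon regulatory factor that works with PU.1 and that microglia need, followed the same order. It ranged from 478 to 656 CPM in CD11b-positive libraries (median 535) and from 446 to 602 CPM in double-positive ones (median 529). CaMKII positive libraries held 7.67 to 83.1 CPM (median 44.4), and ACSA2-positive libraries 0 to 4.47 CPM (median 0.931).

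Irf5, a driver of inflammatory cytokine genes, was among the steadiest factors in the libraries with most microglial RNA. CD11b-positive libraries had 346 to 436 CPM (median 379) and double-positive libraries 353 to 429 CPM (median 395). It stood at 10.4 to 50.3 CPM in CaMKII positive libraries (median 31.8) and at 0 to 4.64 CPM in ACSA2-positive ones (median 1.56). In GENCODE M21, 14.2% of the exon bases of Irf5 are shared with Tnpo3 on the opposite strand. The use of strand in counting is not given in the sources used here, so its counts may hold Tnpo3 reads, and the same overlap came to 2.06% for Mef2a, 1.94% for Cebpa and 0.882% for Runx1.

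Runx1, which starts definitive blood formation and stays on in microglia, ranged from 343 to 489 CPM in CD11b-positive libraries (median 394) and from 316 to 517 CPM in double-positive ones (median 465.8). Its CaMKII positive values, 6.98 to 44.0 CPM (median 26.4), overlapped the ACSA2-positive ones, 0 to 9.73 CPM (median 0.995). The overlap came from 2 ACSA2-positive libraries, at 9.73 and 7.602 CPM, while the others were at 2.74 CPM or less. Ikzf1, or Ikaros, a zinc finger factor of lymphoid and myeloid cells, ranged from 489 to 602 CPM (median 535) in CD11b-positive libraries and from 414 to 546 CPM (median 501) in double-positive ones. It was at 5.45 to 46.7 CPM in CaMKII positive libraries (median 30.5) and at 0 to 2.67 CPM in ACSA2-positive ones (median 0.714).

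Sall1, the zinc finger factor that keeps microglia in their resting identity, did not follow that order. It ran from 1126 to 1518 CPM in CD11b-positive libraries (median 1285) and from 945 to 1314 CPM in double-positive ones (median 1135). In ACSA2-positive libraries it stayed at 96.1 to 151 CPM (median 128), with 2242 counts or more in each of the 17. CaMKII positive libraries held 59.2 to 154 CPM (median 121), and their range overlapped that of the ACSA2-positive ones.

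Mef2a and Mef2c, MADS-box factors that bind the same DNA element, were also kept outside the microglial libraries. Mef2a ranged from 965 to 1619 CPM in CD11b-positive libraries (median 1176), from 975 to 1621 CPM in double-positive ones (median 1312), from 183 to 258 CPM in CaMKII positive ones (median 228) and from 64.5 to 96.9 CPM in ACSA2-positive ones (median 82.9). Mef2c ranged from 605 to 812 CPM (median 766), from 645 to 871 CPM (median 767), from 73.9 to 126 CPM (median 112) and from 14.8 to 55.9 CPM (median 29.95) in the same order. For both, the CaMKII positive values lay above all ACSA2-positive ones. Cebpa, the factor that commits blood progenitors to granulocytes and monocytes, varied most among CD11b-positive libraries, with 332 to 740 CPM (median 473) and a coefficient of variation of 22.4% against 6.32 to 14.9% for the other 8 factors. Its double-positive values were 352 to 689 CPM (median 595), its CaMKII positive values 15.1 to 59.9 CPM (median 37.1) and its ACSA2-positive values 7.49 to 19.7 CPM (median 11.8). The last 2 ranges overlapped.

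**Figure D1:**
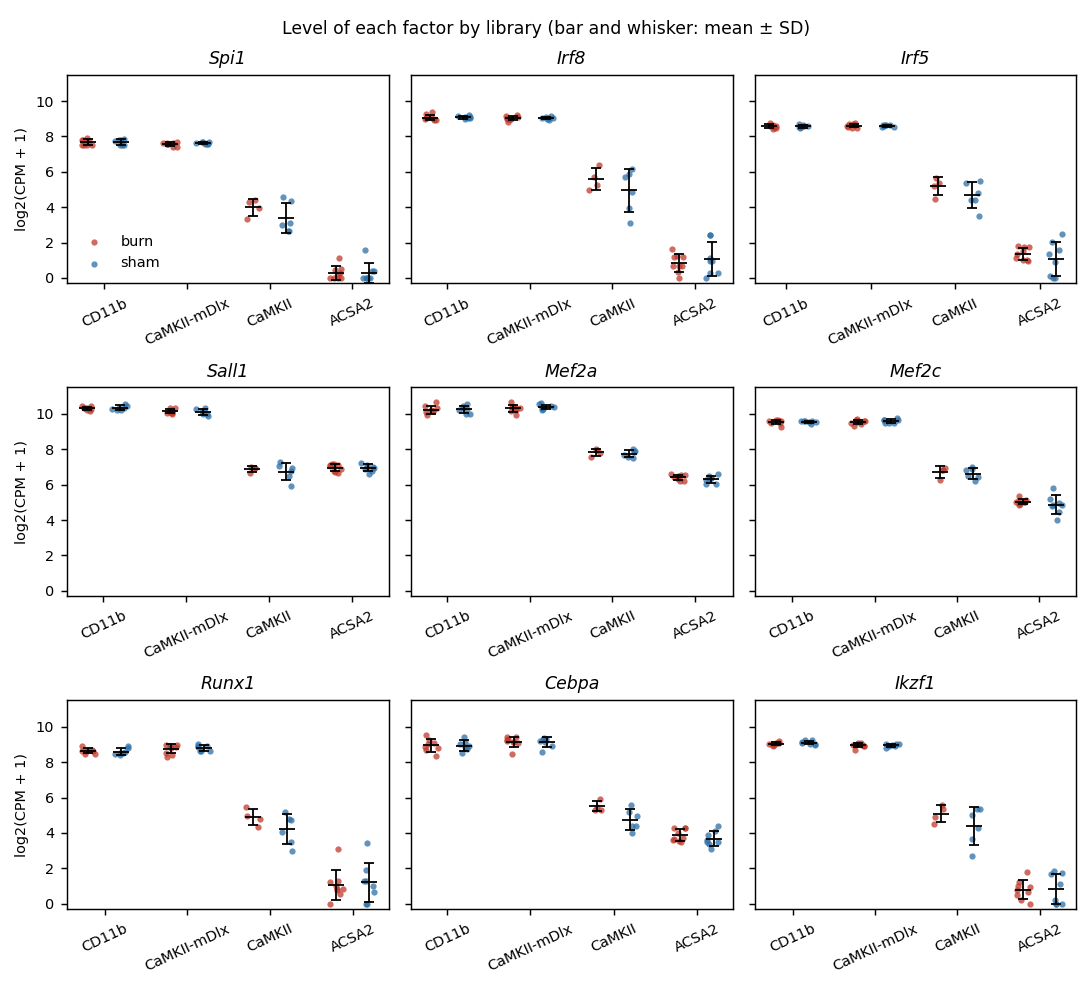
Level of each factor, as log2(CPM + 1) on the vertical axis, in the 58 kept libraries, by sorted population (CaMKII-mDlx stands for the double-positive gate) and treatment (burn red, sham blue). Points are libraries, and bars with whiskers are the mean ± SD of each group. All 9 factors sit high in both left-hand populations, and Sall1, Mef2a, Mef2c and Cebpa stay well above 0 in ACSA2-positive libraries.

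Divided by exon length, the levels of the factors could be set against each other. In CD11b-positive libraries Sall1 had the highest mean, 245 CPM per kb of exon, followed by Cebpa at 191 and Irf5 at 131 CPM per kb. Ikzf1 was at 93.1, Mef2a at 84.0, Irf8 at 76.8 and Spi1 at 75.9 CPM per kb, and Mef2c at 47.8 and Runx1 at 32.9 CPM per kb were lowest. In ACSA2-positive libraries the order was headed by Sall1 at 23.6 CPM per kb, with Mef2a at 5.58, Cebpa at 5.01 and Mef2c at 1.98 CPM per kb, while the other 5 factors were at 0.109 to 0.548 CPM per kb. Exon lengths were those of GENCODE M21 on GRCm38 and counted every annotated exon, so a gene with long or unused exons is placed lower.

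Against ACSA2-positive astrocytes, all 9 factors were called higher in CD11b-positive microglia, in the edgeR quasi-likelihood test (p.adj no higher than 0.05, and a log2FC of 1 or more in size). That call was made for 21.8% of the 30983 genes tested in this direction and for 32.4% in the other. The log2FC was 9.43 ± 0.41 (SE) for Spi1, 9.14 ± 0.41 for Ikzf1, 8.803 ± 0.38 for Irf8, 7.85 ± 0.34 for Irf5 and 7.84 ± 0.45 for Runx1. It was 5.16 ± 0.15 for Cebpa, 4.56 ± 0.12 for Mef2c, 3.83 ± 0.07 for Mef2a and 3.34 ± 0.07 for Sall1. The median of the 9 was 7.84, against −0.28 over all genes tested. Double-positive libraries gave like values against the same astrocytes, from 3.12 ± 0.07 for Sall1 to 9.33 ± 0.41 for Spi1, with 9 of 9 called higher beside 24.3% of genes called higher and 30.7% lower. These comparisons share the ACSA2-positive libraries.

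Against CaMKII positive libraries the 9 factors were likewise called higher in CD11b-positive ones, beside 15.2% of 30663 genes higher and 28.3% lower. Here the log2FC ran from 2.62 ± 0.08 for Mef2a to 4.37 ± 0.26 for Ikzf1, and the factors lay closer together than against astrocytes. Double-positive libraries also exceeded the CaMKII positive ones for 9 of 9 factors, by 2.80 ± 0.08 for Mef2a to 4.47 ± 0.22 for Runx1, beside 19.4% of genes called higher and 26.4% lower. Between CaMKII positive and ACSA2-positive libraries, 8 of 9 factors were called higher in the former, beside 12.7% of genes higher and 3.5% lower. Spi1 had the largest log2FC, 5.32 ± 0.80, and Cebpa and Mef2a the smallest called ones, 1.19 ± 0.18 and 1.25 ± 0.08. Sall1 was the exception, with a log2FC of −0.25 ± 0.11 and p.adj = 0.105. With the mouse as a block, the genes called between these populations numbered 3284 instead of 4978, and the 8 calls among the factors held.

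CD11b-positive and double-positive libraries, taken from different parts of the cortex by different gates, differed little in the lineage factors. None of the 9 met both thresholds, beside 1.98% of 28752 genes called higher in CD11b-positive libraries and 5.6% lower. With the mouse as a block the genes called numbered 1091 instead of 2179. By p.adj alone, 3 factors were higher in CD11b-positive libraries, as were 8.45% of all genes, a direction that turned for Ikzf1 and Spi1 when scaled to microglial markers. Sall1 had a log2FC of 0.26 ± 0.05 (p.adj = 0.000158), Ikzf1 of 0.17 ± 0.04 (p.adj = 0.00268) and Spi1 of 0.16 ± 0.04 (p.adj = 0.00884). Within batch 3 alone Sall1 kept p.adj = 0.00177, while Ikzf1 and Spi1 gave p.adj = 0.0603 and 0.0813. Cebpa and Runx1 had values in the other direction, −0.16 ± 0.08 and −0.10 ± 0.06, with p.adj = 0.189 and 0.295. The remaining 4 factors lay between −0.01 and 0.09, with SE of 0.04 to 0.05. The median log2FC of all genes was −0.09 with trimmed-mean scaling and −0.14 with library size alone, and under the latter Irf5 and Mef2c, at −0.03 and −0.02, changed sign.

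To set the factors against the amount of microglial RNA, each mean was taken as a share of its CD11b-positive mean and placed beside the 14 microglial markers. In double-positive libraries the factors were at 87.9% (Sall1) to 114% (Cebpa), and the markers at 76.9 to 103.2% with a median of 89.2%, so that Mef2a (106.5%), Runx1 (111.5%) and Cebpa lay past the highest marker. In CaMKII positive libraries the markers had a median of 3.84% and a highest share of 10.6% (Aif1), and the factors lay at 5.27% (Ikzf1) to 18.0% (Mef2a), with Mef2a and Mef2c, at 13.6%, past every marker. In ACSA2-positive libraries the markers were at 0.0702% (Aif1) to 0.394% (P2ry12), with a median of 0.147%. Spi1 at 0.143%, Ikzf1 at 0.176% and Irf8 at 0.223% lay inside that range, and Irf5 at 0.418% and Runx1 at 0.463% just beyond it. Cebpa was at 2.62%, Mef2c at 4.15%, Mef2a at 6.65% and Sall1 at 9.64%, all above the highest marker.

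**Figure D2:**
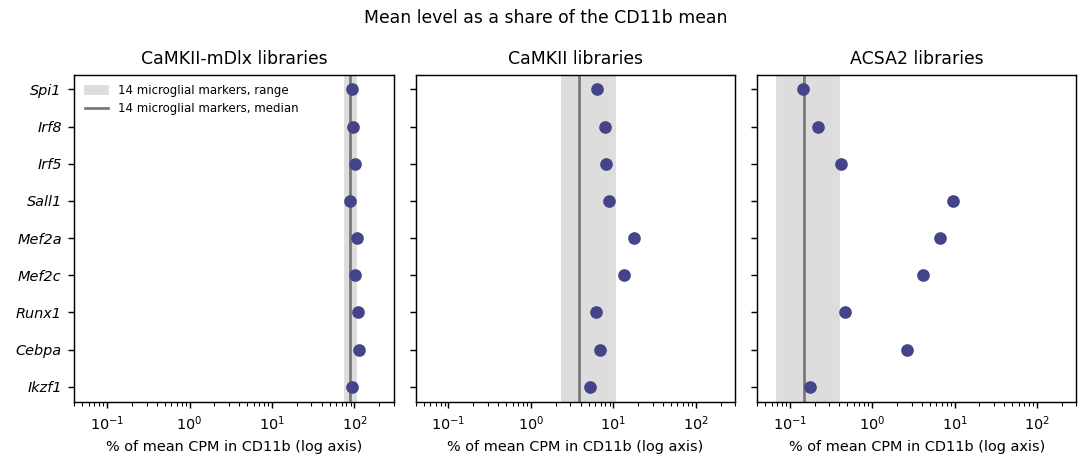
Mean CPM of each factor as a percentage of its mean in CD11b-positive libraries (log axis), for the 3 other populations; the grey band and line are the range and the median of 14 microglial markers. In ACSA2-positive libraries Cebpa, Mef2c, Mef2a and Sall1 lie to the right of the band, at 2.62 to 9.64%, while Spi1, Irf8 and Ikzf1 lie inside it.

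The same question was put as a test by scaling each library to the geometric mean of the 14 markers. Relative to the markers, 6 of 9 factors were called lower in CD11b-positive than in ACSA2-positive libraries, a call that this scaling gave to 92.4% of genes, with 0.242% called higher. The log2FC was −7.01 ± 0.55 for Sall1, −6.44 ± 0.54 for Mef2a, −5.74 ± 0.53 for Mef2c, −5.20 ± 0.48 for Cebpa, −2.33 ± 0.64 for Irf5 and −2.004 ± 0.63 for Runx1. Spi1, Ikzf1 and Irf8 were not called, at −0.35 ± 0.83, −0.70 ± 0.64 and −1.18 ± 0.60 (p.adj = 0.702, 0.298 and 0.0588). With the mouse as a block the call for Runx1 was lost (log2FC −1.48, p.adj = 0.0941) and the value for Spi1 was 1.83. Against CaMKII positive libraries 4 factors were called lower, Mef2a (−2.39 ± 0.25), Mef2c (−1.97 ± 0.22), Sall1 (−1.32 ± 0.20) and Irf5 (−1.06 ± 0.17), beside 86.5% of genes lower and 0.365% higher. Against double-positive libraries 0 factors were called, beside 8.79% of genes lower and 1.85% higher. The sign seen without this scaling turned for Spi1 (−0.11 ± 0.05), Ikzf1 (−0.09 ± 0.06), Irf8 (−0.17 ± 0.06), Irf5 (−0.23 ± 0.07) and Mef2c (−0.22 ± 0.07), and Sall1 came to 0.01 ± 0.05. In all, 8 of 9 factors were below 0, and of 28752 genes only 5467 were above 0. The median log2FC was −0.22 for the factors and −0.34 over all genes. Of the factors 6 had an unadjusted p under 0.05, as did 11925 of 28752 genes. The block brought the genes called from 3059 to 1537. The shares of all genes called show that this scaling follows the markers and not the whole library, so each value reads as a level per unit of microglial marker RNA.

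No factor was called between burn and sham-injured mice in any population, nor did any other gene meet both thresholds in the edgeR test (0% of the 26079, 26707, 28107 and 27930 genes tested in CD11b-positive, double-positive, CaMKII positive and ACSA2-positive libraries). An unadjusted p under 0.05 was found for 2036, 1872, 1096 and 2984 genes. DESeq2 called 80, 2, 3 and 27 genes in the same order, and 0 of the 9 factors in each.

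In CD11b-positive microglia the burn effects were small and their errors narrow. Spi1 ranged from 180 to 239 CPM in burn mice (median 198) and from 183 to 232 CPM in sham mice (median 211), with a log2FC of 0.04 ± 0.08. Irf8 ranged from 478 to 656 CPM (median 516) and from 504 to 601 CPM (median 537), with a log2FC of −0.03 ± 0.07. Burn and sham values overlapped for both of these PU.1-centred factors. Sall1 ranged from 1126 to 1390 CPM in burn mice (median 1287) and from 1183 to 1518 CPM in sham mice (median 1285), with a log2FC of 0.02 ± 0.08. Runx1 had the value farthest from 0, 0.08 ± 0.08 (p.adj = 0.964), with 359 to 489 CPM in burn mice and 343 to 481 CPM in sham mice. The other 5 factors lay between −0.04 and 0.04, and the largest SE was 0.11, for Cebpa. Without the batch term 3 instead of 6 of the 9 values were above 0, and Spi1, whose mean was 203 CPM in burn and 206 CPM in sham mice, was not among them. In double-positive libraries the 9 factors lay between −0.06 ± 0.07 (Irf8) and 0.03 ± 0.08 (Sall1), with p.adj of 0.982 or more. Within batch 3 alone, with 5 burn and 5 sham libraries of each, the values ran from −0.04 to 0.07 in CD11b-positive and from −0.05 to 0.10 in double-positive libraries.

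The burn effect itself was compared between populations by the interaction of treatment and cell type. Between CD11b-positive and double-positive libraries 0 of 9 factors and 0% of genes were called, and the difference of the burn effects ran from −0.07 to 0.10. Between CD11b-positive and ACSA2-positive libraries 0 of 9 factors were called, beside 0.00323% of genes, which is 1 of 30983, and the values ran from −0.16 to 0.66.

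CaMKII positive libraries had wider errors and larger values. All 9 factors had a log2FC above 0, from 0.09 ± 0.16 for Mef2a to 0.71 ± 0.29 for Cebpa, with a median of 0.55 against 0.02 over all genes, and p.adj = 1.00 for each. Cebpa was at 39.0, 59.9, 38.7 and 42.8 CPM in the 4 burn libraries, and at 15.1 to 46.2 CPM (median 25.3) in the 6 sham ones. Only 1 of the 6 sham libraries, at 46.2 CPM, was above the lowest burn value. Irf5 was at 21.1, 50.3, 36.3 and 40.4 CPM in burn libraries and at 10.4 to 44.4 CPM (median 23.8) in sham ones, with a log2FC of 0.60 ± 0.26. These were the factors with an unadjusted p under 0.05 (0.0299 and 0.0408). Runx1 was at 19.5, 44.0, 30.1 and 27.0 CPM in burn libraries and at 6.98 to 36.0 CPM (median 20.6) in sham ones (log2FC 0.69 ± 0.36). Within batch 3 alone, with 3 burn and 5 sham libraries, all 9 values stayed above 0, from 0.05 to 0.86. The microglial markers moved with these values: their summed level was 720 to 2425 CPM in burn libraries (median 1194) and 416 to 1655 CPM in sham libraries (median 708), with 0 of the 14 markers at 0 in either group. Their part in the result was not tested. Among 25 ligands, receptors and effectors tied to myeloid cells, 22 also had a log2FC above 0 there (median 0.65) and 8, Csf1 with a value below 0 among them, had an unadjusted p under 0.05, with 0 called. Over all genes, 14555 of 28107 had a log2FC above 0 and 3.90% an unadjusted p under 0.05.

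In ACSA2-positive astrocytes the factors split by level. Sall1 ranged from 99.9 to 142 CPM in burn mice (median 134) and from 96.1 to 151 CPM in sham mice (median 125), with a log2FC of 0.02 ± 0.10. Mef2a, Cebpa and Mef2c gave 0.06 ± 0.08, 0.15 ± 0.19 and 0.15 ± 0.18. For Spi1 the SE was 1.51, so that a change of several fold was not detectable, and its alternative fits ran from −0.64 to 2.25. The 5 factors with few counts gave values from −0.47 ± 0.86 (Irf8) to 0.66 ± 1.16 (Ikzf1). For 3 of them the sign rested on the batch term: without it Spi1, Runx1 and Ikzf1, at −0.32, −0.41 and −0.34, lay below 0 like the difference of their group means (Ikzf1 averaged 0.838 CPM in burn and 1.07 CPM in sham mice), and 4 instead of 8 of the 9 values were above 0. Within batch 3 alone the 9 values ran from −0.96 to 0.34, with 0 called.

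**Figure D3:**
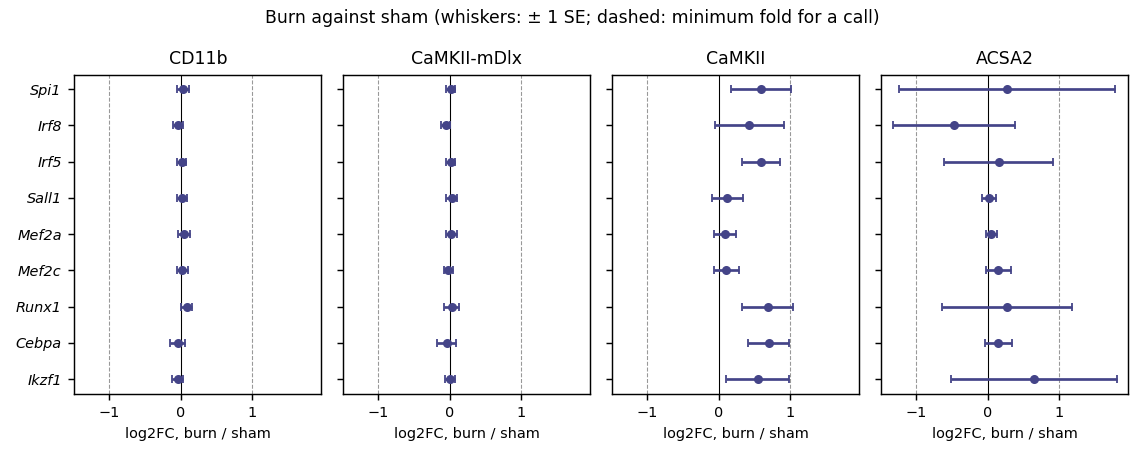
log2FC of burn against sham for each factor in the 4 sorted populations, with whiskers of 1 SE and dashed lines at the minimum fold for a call. In CD11b-positive and double-positive libraries all 9 points lie between −0.06 and 0.08; in CaMKII positive libraries all lie right of 0; in ACSA2-positive libraries the low-count factors have wide whiskers.

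The relatives of the factors were read from a list of 25 genes, of which 24 were tested against astrocytes. In CD11b-positive microglia 15 were called higher and 3 lower, beside 21.8% and 32.4% of all genes, and 6 were not called. The called relatives with the largest folds were counted at low levels: Ikzf3, Cebpe, Runx3 and Irf4 had log2FC of 7.33 ± 0.58, 7.16 ± 0.81, 7.13 ± 0.63 and 6.64 ± 0.43. Most abundant in CD11b-positive libraries were Mef2d (268 CPM), Sall3 (260 CPM), Irf1 (201.5 CPM) and Cebpg (140.5 CPM), which stood at 88.8, 110.1, 18.9 and 28.8 CPM in ACSA2-positive ones. Sall2, named after its values were seen, ran the other way, with a mean of 34.2 CPM in CD11b-positive and 215 CPM in ACSA2-positive libraries (log2FC −2.70 ± 0.10). In CaMKII positive libraries 9 relatives were called lower and 4 higher than in CD11b-positive ones, beside 15.2% and 28.3% of all genes, and Irf7, which drives the interferon response, was among the latter (12.3 against 119 CPM; log2FC −2.97 ± 0.30).

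Between the CD11b and double-positive gates, 4 of 24 relatives tested were called higher in CD11b-positive libraries and 0 lower, beside 1.98% and 5.6% of all genes. They were Ikzf3, or Aiolos, and Spib, both known from B cells and plasmacytoid dendritic cells, and Runx3 and Runx2. Ikzf3 averaged 4.42 CPM in CD11b-positive and 0.290 CPM in double-positive libraries (log2FC 4.13 ± 0.65, p.adj = 1.89e-05). Spib averaged 2.63 and 0.224 CPM (3.72 ± 0.64, p.adj = 7.07e-05), Runx3 3.83 and 0.940 CPM (2.12 ± 0.56) and Runx2 2.71 and 0.744 CPM (1.81 ± 0.43). Marker lists of other blood cells and macrophages had higher values in the same libraries: the 7 lymphocyte markers summed to 3.71 to 26.5 CPM in CD11b-positive and 0 to 6.80 CPM in double-positive libraries, the 8 markers of monocytes and neutrophils to 22.0 to 176 CPM and 4.01 to 56.0 CPM, and the 7 border macrophage markers to 87.7 to 537 CPM (median 337) and 81.4 to 343 CPM (median 121). With burn and sham libraries pooled, no marker of these lists was at 0 in every library of either gate. Their part in the result was not tested.

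**Figure D4:**
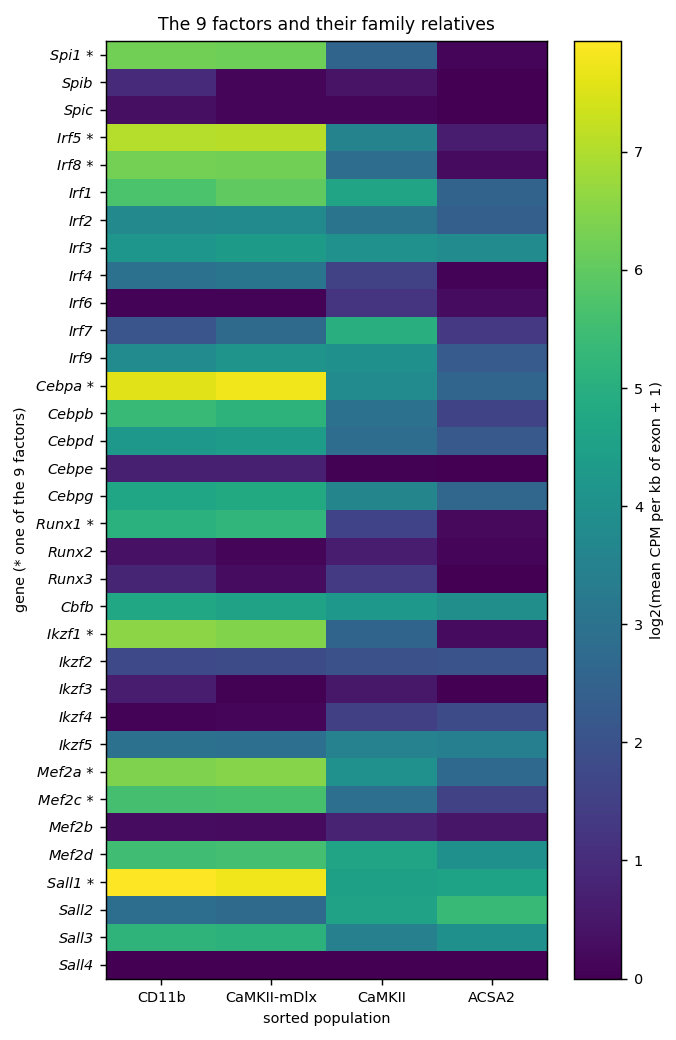
Mean level per kb of exon, as log2(mean CPM per kb + 1), of the 9 factors (starred) and 25 relatives in the 4 sorted populations, ordered by family. The starred genes are bright in CD11b-positive and double-positive libraries, Sall2 is brighter in ACSA2-positive ones, and Sall4 is at or near 0 in every population.

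A list of 20 other factors of myeloid cells was read in the same way. Against ACSA2-positive astrocytes 15 were called higher in CD11b-positive microglia and 4 lower, beside 21.8% and 32.4% of all genes. Tfec had 0 counts in every ACSA2-positive library and a mean of 1.57 CPM in CD11b-positive ones, which gives no fold. Batf3 and Maf had log2FC of 7.69 ± 0.53 and 7.45 ± 0.20. Abundant members of the list in CD11b-positive libraries were Maf (688 CPM), Zeb2 (647 CPM) and Klf2 (371 CPM). Klf2, which endothelial cells also use, had 411.5 CPM in CaMKII positive libraries, and Zeb2 136 CPM in ACSA2-positive ones. Between the CD11b and double-positive gates 1 of 20 was called, beside 1.98% of all genes higher and 5.6% lower. It was Gfi1, at 0.194 and 0.00910 CPM (log2FC 4.31 ± 1.06, p.adj = 0.00414). Gfi1 is a repressor known from granulocytes, and its level in CD11b-positive libraries was near the detection floor.

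In that list of 25 ligands, receptors and effectors, values are given first for the ligands. Il34, a ligand of the Csf1 receptor made by neurons, was at 0.127 CPM in CD11b-positive and 7.89 CPM in CaMKII positive libraries (log2FC −5.50 ± 0.78). Csf1, the other ligand of that receptor, was at 104 and 118 CPM in these, and at 100.2 CPM in ACSA2-positive libraries. Tgfb1, the TGF-beta ligand, was at 559 CPM in CD11b-positive and 9.89 CPM in ACSA2-positive libraries (log2FC 5.74 ± 0.23). Csf1r, the receptor of Il34 and Csf1 and a classic PU.1 target, averaged 7509 CPM in CD11b-positive, 5777 CPM in double-positive, 286 CPM in CaMKII positive and 9.66 CPM in ACSA2-positive libraries. Tgfbr1, a receptor of the TGF-beta signal that maintains Sall1, followed at 2334, 1993, 130 and 32.4 CPM. The effectors Laptm5 (3601 CPM) and Ctss (2766 CPM) were the other abundant genes of the list in CD11b-positive libraries. Against astrocytes 23 of 25 were called higher in CD11b-positive libraries and 1 lower, beside 21.8% and 32.4% of all genes, with a median log2FC of 9.08. Between the CD11b and double-positive gates 1 of 25 was called, beside 1.98% of all genes higher and 5.6% lower. It was Cybb, a subunit of the phagocyte oxidase, at 45.6 and 17.2 CPM (log2FC 1.37 ± 0.25, p.adj = 0.000207).

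Genes whose pattern was most like that of each factor were found by the Pearson r of log2(CPM + 1) over the 58 libraries, among 17265 genes. The libraries share cell types, so r mainly reflects the order of the populations, and it is given as a description. Spi1 was nearest to Fcgr3 (r = 0.995) and Nckap1l, and Ikzf1 to P2ry13 (r = 0.996), Trem2 and Olfml3. Irf8 was nearest to Ikzf1, a member of the same 9 (r = 0.995), then to Cd86 and Il10ra. Irf5 was nearest to Cyth4 (r = 0.994), Elmo1 and Pik3cg, and Runx1 to Dennd1c (r = 0.993), Arhgap25 and Kctd12. Cebpa was nearest to Rhob (r = 0.990), C5ar1 and Smap2. Sall1 was nearest to Bmp2k (r = 0.994), 1700017B05Rik and Daglb, Mef2a to Srgap2 (r = 0.995), Picalm and Mbnl1, and Mef2c to Ssh2 (r = 0.993), Ldlrad4 and Pde3b. Among the 9 themselves the lowest r was 0.894, between Irf8 and Sall1.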

How the data were processed

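Sorted cells were profiled by stranded total RNA sequencing. According to the study's methods, reads were trimmed with fastp, aligned with STAR to GRCm39 (the labels also list mm10) and counted per Ensembl gene with GenomicAlignments; the authors deposited raw counts and log2-like variance-stabilised values, and only the deposited counts were used here. Of 63 libraries 58 were kept. Genes with at least 10 counts over the libraries of a comparison were tested with the quasi-likelihood test of edgeR 4.0.16 (R 4.3.3; trimmed-mean scaling; batch, and for cell types treatment, as covariates; Benjamini-Hochberg over all genes tested). A call needed p.adj no higher than 0.05 with a log2FC of 1 or more in size, the thresholds of the study, which used DESeq2; DESeq2 1.42.0 was an alternative. SE was taken from log2FC and F. The scaling to 14 microglial markers used a pseudocount of 0.5, and levels and r used log2(CPM + 1). The tests were tested on simulated data.

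The factors, the other gene lists and the marker lists were chosen with earlier results of these data known. Each factor is named in every comparison. From each other list at most 4 called genes with the largest fold and the 4 most abundant in CD11b-positive libraries are named, and for each factor its 3 most similar genes; 1 gene that this rule names is not reported here. Mouse numbers in the labels mark the same animals across populations, which pairs the libraries; deviations of the same mouse correlated at a median r of 0.005 to 0.159. The closest of 1953 pairs of libraries differed by 14.1 times the chi-square of sampling noise per degree of freedom, so each library counted once. The detection floor covers counting error only, while SD and SE include the spread between mice. No genome of the build used for counting was used, and promoters are from RefSeq, GRCm38.p6. Python 3.11.15, pandas 2.3.3 and SciPy 1.17.1 were used for tables.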

Additional observations from a re-analysis of the deposited data

Results flagged for a closer look

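In each of 72 groups (9 factors, 4 populations, burn or sham), the library farthest out was compared with its neighbours by the gap over the whole range of the group. In 8 groups (11.1%) the gap passed the 95% limit, which flags about 5% of groups when values are normally distributed. The CPM here include many values of 0 in ACSA2-positive libraries, and the 9 factors share their libraries. These shares therefore cannot be compared directly. In ACSA2-positive libraries the flags were on low values: Spi1 at 1.18 CPM in 1 of 9 burn libraries (the next at 0.447 CPM) and at 2.01 CPM in 1 of 8 sham libraries (next 0.336 CPM), and Runx1 at 7.602 CPM in 1 burn library (next 1.43 CPM) and at 9.73 CPM in 1 sham library (next 2.74 CPM). In CD11b-positive libraries Mef2c was lowest at 605 CPM in 1 of 8 burn libraries, with the next at 724 CPM and a median of 769 CPM, and Runx1 was highest at 489 CPM in another, with the next at 415 CPM. In double-positive libraries Cebpa was lowest at 352 CPM in 1 of 9 burn libraries, that of mouse 22, with the next at 548 CPM. Ikzf1 was lowest at 414 CPM in 1 burn library, with the next at 486 CPM. The burn effect on these factors stayed uncalled without each of these libraries.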

How the results depend on the processing

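Between burn and sham mice 0 of the factors tested were called under every alternative fitted, each library left out in turn included, and in the comparisons of populations they changed only as follows. Without a minimum fold, 3 factors were called between CD11b-positive and double-positive libraries; these were Sall1, Ikzf1 and Spi1. Scaled to the microglial list, the calls against ACSA2-positive libraries numbered 7 with 8 of the markers (Irf8 added) and 5 with the replicate block (Runx1 lost), and against CaMKII positive libraries 3 with 6 of the markers and 6 with the other 8. Spi1 was without an adjusted p in DESeq2 between double-positive and ACSA2-positive libraries and in the interaction of CD11b-positive with ACSA2-positive libraries, and filterByExpr removed it from burn against sham in ACSA2-positive ones, so these fits say nothing of it. The log2FC of an uncalled factor changed sign in 36 of 996 fits under other settings and in 40 of 522 with a library left out. In ACSA2-positive libraries Ikzf1 moved from 0.66 to −0.72 in batch 3 alone. In double-positive libraries all 9 factors lay between 0.41 and 0.49 with the left-out libraries added, where Irf8 moved from −0.06 to 0.41. The median over all genes was 0.22 in that fit, and the added sham library of mouse 8 held 331215 counts in total.

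For all genes, burn against sham gave calls with DESeq2 (80 in CD11b-positive, 2 in double-positive, 3 in CaMKII positive and 27 in ACSA2-positive libraries), with genes of any count (14 in double-positive, 4 in ACSA2-positive) and with every deposited library (136 in double-positive). The interaction calls were 89 and 271 with DESeq2 and 2 and 0 with the replicate block, for CD11b-positive against double-positive and against ACSA2-positive libraries. Between populations, the filterByExpr filter tested fewer genes and called 10767, 953, 8529, 10603, 9105 and 2998 of them (CD11b against ACSA2, against double-positive and against CaMKII, double-positive against ACSA2 and against CaMKII, CaMKII against ACSA2). CD11b against double-positive also gave 1008 in batch 3 alone, 5073 without a minimum fold and 1091 with the replicate block (1537 when scaled to the list), and CaMKII against ACSA2 gave 9181 and 3284 in the latter 2 fits. The cause was not tested. With the pairing by mouse as a block the calls numbered 14246, 9939, 14969 and 10606 for CD11b against ACSA2 and against CaMKII and for double-positive against ACSA2 and against CaMKII, and 26964 and 21725 when CD11b against ACSA2 and against CaMKII were scaled to the list; among the 9 factors the block changed no call but that of Runx1. Burn against sham could not be blocked, since each mouse had 1 treatment. In ACSA2-positive libraries, counts of 0 limit what can be said of Spi1, Irf8, Irf5, Runx1 and Ikzf1.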

Other observations

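Libraries of the same mouse could be set side by side for CD11b-positive and double-positive cells in 14 mice, a comparison chosen after the data were seen. Over the 9 factors, Cebpa, Irf5 and Irf8 had the highest r and rho between both libraries of a mouse when all 14 mice were used. For Cebpa, Pearson's r of log2(CPM + 1) was 0.813 and Spearman's rho 0.811 (two-sided permutation test with 100000 resamples, p = 0.00027 and 0.00077, or 0.00183 and 0.00347 after Benjamini-Hochberg adjustment for 9 relations), r was 0.721 without the 2 mice farthest from the median and 0.909 among the 10 mice of batch 3. Mouse 22 had the lowest Cebpa in both, 332 and 352 CPM, and mouse 15 the next lowest in both, 359 and 387 CPM. For Irf5, r was 0.813 and rho 0.785 (adjusted permutation p = 0.00183 and 0.00486), with r = 0.637 without 2 mice and 0.835 in batch 3. For Irf8, r was 0.798 and rho 0.808 (adjusted permutation p = 0.00183 and 0.00347), with r = 0.608 without 2 mice and 0.476 in batch 3. Mef2a gave r = 0.590 and rho = 0.657 (adjusted permutation p = 0.0572 and 0.029), and r = 0.443 without 2 mice and 0.696 in batch 3. Spi1 (r = 0.533), Mef2c (0.428), Ikzf1 (0.297), Sall1 (0.247) and Runx1 (−0.168) did not pass the adjusted threshold. For Spi1 r was 0.679 without 2 mice, above the values of Irf5 and Irf8, and 0.21 in batch 3. The batch of a mouse is shared by both of its libraries, whose cells were sorted separately according to the methods. The part of the batch in the agreement was not tested beyond batch 3.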
